A study of Mus musculus with 9 samples.

Results

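The genes described here are 7 components of the route by which Ras activates ERK and 1 protein that binds ERK, 8 of the 47729 gene identifiers in the deposited tables. They are the Ras exchange factors Rasgrp1, Rasgrf1 and Rasgrf2, the kinases Braf, Map2k1, Map2k2 and Mapk3, and the ERK-binding protein Pea15a. They were chosen as a list of named genes, with earlier results of these data known, so counts of called genes among the 8 are a description. They were matched by symbol to the identifiers of the files. All 8 passed the filter on low values (at least 1 CPM in at least 3 libraries). CPM is the reads of a gene scaled to the total of its library.

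The libraries hold RNA bound to ribosomes of dorsal striatum from C57BL/6 mice at postnatal day 28. All mice carried D1-Cre, which drives Cre recombinase in cells that express the D1 dopamine receptor, and RiboTag, an allele from which Cre switches on a ribosomal protein with a hemagglutinin (HA) tag. Polyribosomes were precipitated with beads coupled to an antibody to HA, so that the target was the D1 medium spiny neurons (D1 MSNs) of the direct pathway. There were 3 groups of 3 libraries. D1-Cre-flTrkB-RT mice with stereotypy (spontaneous repetitive behavior) and D1-Cre-flTrkB-RT mice without stereotypy also carried floxed TrkB, and D1-Cre-RT mice without the floxed allele were the controls. The labels call the D1-Cre-flTrkB-RT libraries biological triplicates, do not say whether tissue of several animals was pooled, and give no sex and no batch. For the controls nothing says that the libraries came from separate animals, so p-values measure the spread between these libraries. No library of RNA from before the precipitation was used here, so enrichment was not measured, and fewer cells of a type cannot be told apart from less RNA per cell.

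TrkB, encoded by Ntrk2, is the receptor for brain-derived neurotrophic factor (BDNF), and signals through adaptors to Ras. Exchange factors load Ras with GTP, Ras with GTP recruits Raf kinases, Raf phosphorylates the MEK kinases, and MEK phosphorylates ERK, which acts in the cytoplasm and, after it enters the nucleus, on transcription. In striatal medium spiny neurons this cascade is known to respond to dopamine and glutamate as well as to neurotrophins.

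The libraries held 27103152 to 31117135 reads with stereotypy, 35702420 to 40578512 reads without stereotypy and 32615356 to 36535817 reads in controls. The targeted gene Ntrk2 had 34.3, 43.9 and 40.7 CPM with stereotypy, 23.4, 14.1 and 19.2 CPM without stereotypy and 319, 385 and 487 CPM in controls, so every TrkB-deleted library lay below every control. Its remaining level was not alike in the TrkB-deleted groups. With stereotypy it was higher than without by 1.05 on the log2 scale (limma adjusted p under 0.05). That call was lost in 7 of 24 alternative ways of processing (adjusted p up to 0.0872), and its cause was not tested. The 8 D1 MSN markers summed to 2239 to 2295 CPM with stereotypy, 1514 to 1873 CPM without stereotypy and 1797 to 2430 CPM in controls, and none of them was at 0 in any library. Markers of D2 MSNs and of cortical excitatory neurons were also present. D2 MSN markers summed to 259 to 424 CPM with stereotypy, 597 to 1050 CPM without stereotypy and 443 to 1433 CPM in controls. Cortical markers summed to 159 to 284 CPM with stereotypy, 581 to 1429 CPM without stereotypy and 271 to 851 CPM in controls.

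Pea15a was the only gene of the 8 that passed the test against control. It was 2.20-fold higher with stereotypy and 2.62-fold higher without stereotypy than in controls, on the scale of CPM + 1. None of the 3 exchange factors and none of the 4 kinases passed the test in any comparison. The test was limma on log2(CPM + 1) with Benjamini-Hochberg adjustment over 13695 genes and a threshold of 0.05. With that test, 1 of the 8 genes was called with stereotypy against control, where 5.10% of all genes tested were called. Without stereotypy against control it was 1 of 8, against 6.77% of all genes. With both TrkB-deleted groups averaged and set against control it was 1 of 8, against 5.72% of all genes. Between stereotypy and no stereotypy it was 0 of 8, against 10.2% of all genes. There 4 of the 8 had an unadjusted p under 0.05 by limma, as had 4089 of all 13695 genes. On the recovered reads edgeR called 0 of the 8 and 1335 of all 13695 genes, and DESeq2 called 3 of the 8 and 2343 of all. The limma F test over the 3 groups called 1 of the 8, again Pea15a (adjusted p = 9.32e-05), against 14.0% of all genes. Against control, 4 of the 8, Pea15a included, had an unadjusted p under 0.05 by limma with stereotypy. The count was 4 without stereotypy and 5 for both groups averaged. Over all 13695 genes it was 3288, 3079 and 2794 in the same order. A gene that missed the threshold with 3 libraries per group is not thereby shown to be unchanged.

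**Figure D1:**
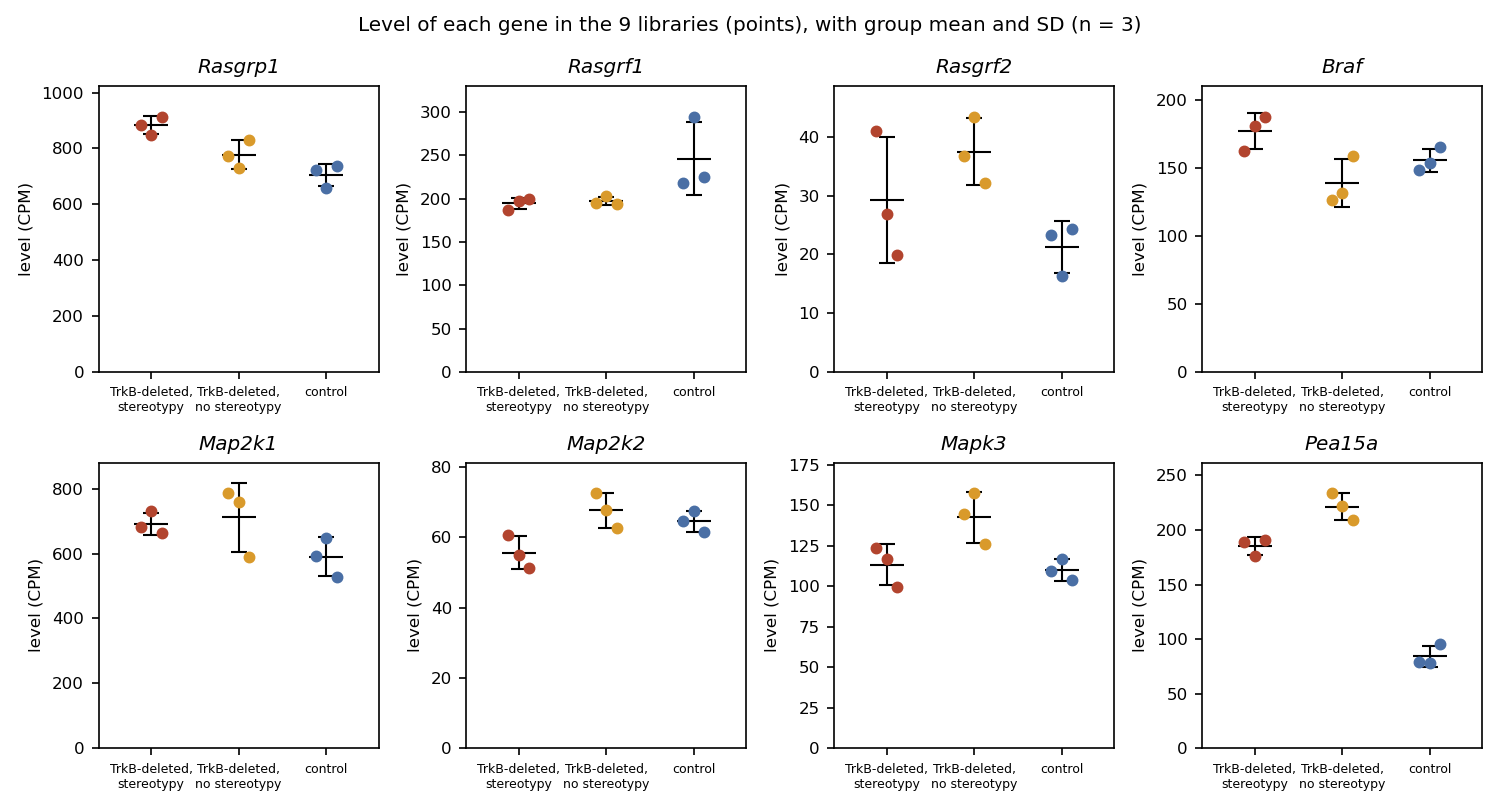
Level of each of the 8 genes in CPM (vertical axes, from 0) in the 9 libraries, by group. Points are libraries, the short line is the group mean and the bar its SD (n = 3). Pea15a lies between 176 and 234 CPM in the TrkB-deleted libraries and between 77.8 and 95.6 CPM in the controls, while most other genes have groups that overlap or nearly touch.

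Pea15a (ENSMUSG00000013698, GRCm38 chr1:172196728-172206804, minus strand) encodes a small protein with a death effector domain that binds ERK and holds it in the cytoplasm, and that is known as abundant in astrocytes. It had 188.9, 176.2 and 190.9 CPM with stereotypy, 233.8, 222.0 and 208.8 CPM without stereotypy, and 79.1, 77.8 and 95.6 CPM in controls. The 6 TrkB-deleted libraries lay above all controls, and the lowest of them was 176 CPM against 95.6 CPM in the highest control. Group means were 185 ± 7.96 CPM with stereotypy, 222 ± 12.5 CPM without stereotypy and 84.2 ± 9.90 CPM in controls (SD, n = 3 each). Between 2750 and 9047 reads per library stood behind these values, so counting error was small beside the spread between libraries.

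The log2 change of Pea15a was 1.14 with stereotypy (95% interval 0.92 to 1.35, limma adjusted p = 0.000299) and 1.39 without stereotypy (1.18 to 1.60, limma adjusted p = 4.31e-05). Averaged over both TrkB-deleted groups, it was higher than in controls by 1.26 on the log2 scale (1.08 to 1.45, limma adjusted p = 3.02e-05). With stereotypy Pea15a was lower than without by 0.84-fold (95% interval 0.72 to 0.97, log2 change -0.26, limma adjusted p = 0.107), a difference that did not pass the test although the libraries of these groups did not overlap. The comparisons with control share the same 3 control libraries, so their values are given side by side and are not independent of each other.

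The 250 bases just upstream of the annotated start of Pea15a are printed because it is the only gene of the 8 that passed the test against control. They are from RefSeq (GRCm38.p6 chr1:172206805-172207054, minus strand), written 5′ to 3′ along the gene's strand, with a GC content of 56.4%.

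Pea15a upstream: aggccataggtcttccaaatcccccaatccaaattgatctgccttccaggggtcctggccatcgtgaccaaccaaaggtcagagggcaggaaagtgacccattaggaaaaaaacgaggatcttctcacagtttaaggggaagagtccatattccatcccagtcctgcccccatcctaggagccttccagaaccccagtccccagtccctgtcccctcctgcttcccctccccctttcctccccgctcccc

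Both strands of the upstream windows were searched for the GC box GGGCGG, the EGR motifs GCGGGGGCG and GCGTGGGCG, the ETS motif CCGGAA, the cyclic AMP response element TGACGTCA, its core TGACG (which overlaps the full element) and the AP-1 motif TGAGTCA. No capitals are shown in the Pea15a window because none of these letters occurs in it. Windows were found for 7 of the 8 genes. A GC box was in 5 of the 7 and in 32.7% of 32851 promoters, and the core TGACG was in 4 of the 7 and in 17.8% of promoters. The full element was in the Braf window and in 1.55% of promoters, and the ETS motif was in the Map2k1 window and in 12.03% of promoters. The AP-1 motif, in 4.46% of promoters, and the EGR motifs, in 2.57% and 0.536% of promoters, were in none of the 7. A match is a description of the letters and does not identify a binding site.

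Levels of glial markers are set beside Pea15a, since that gene is known from astrocytes. The 12 astrocyte markers summed to 734 to 765 CPM with stereotypy, 536 to 652 CPM without stereotypy and 525 to 653 CPM in controls, and none was at 0 in any library. By limma, 6 of the 12 were higher with stereotypy and 1 of the 12 was higher without stereotypy than in controls. Their median log2 change was 0.68 with stereotypy and 0.30 without stereotypy. With stereotypy their changes ran from 0.0002 for Slc1a2 to 1.18 for Aqp4 and Slc1a3, where Pea15a changed by 1.14. Aqp4 averaged 4.58 CPM with stereotypy and 1.44 CPM in controls. Most of the sum came from Slc4a4, Slc1a2 and Acsl6, named after their values were seen, so it says little of the other 9. Slc4a4 averaged 394 CPM with stereotypy, 253 CPM without stereotypy and 275 CPM in controls. Aldoc, the marker called without stereotypy, averaged 31.9 CPM with stereotypy, 33.6 CPM without stereotypy and 21.7 CPM in controls. The part of astrocyte RNA in the level of Pea15a was not tested. Oligodendrocyte markers summed to 1227 to 2185 CPM with stereotypy, 788 to 1809 CPM without stereotypy and 596 to 1256 CPM in controls. With the mean level of glial and vascular markers in the fit, the log2 change of Pea15a was 1.07 with stereotypy (limma adjusted p = 0.0474) and 1.37 without stereotypy (limma adjusted p = 0.000196). Microglial and vascular markers summed to at most 44.0 and 95.8 CPM with stereotypy, 28.8 and 29.7 CPM without stereotypy, and 31.6 and 44.6 CPM in controls.

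Pea15a shares 278 bases, exons included, with Dcaf8 on the opposite strand, and whether the authors' counting used strand is not given in the sources used here. Dcaf8 had 157 to 174 CPM with stereotypy, 168 to 171 CPM without stereotypy and 137 to 171 CPM in controls, with ranges that overlap between groups. To which gene reads from the shared bases were assigned is therefore not known.

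Every alternative way of processing that was tried kept the call of Pea15a against control. The log2 change ranged over 1.07 to 1.23 with stereotypy in 24 alternatives and over 1.29 to 1.53 without stereotypy in 24 alternatives.

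**Figure D2:**
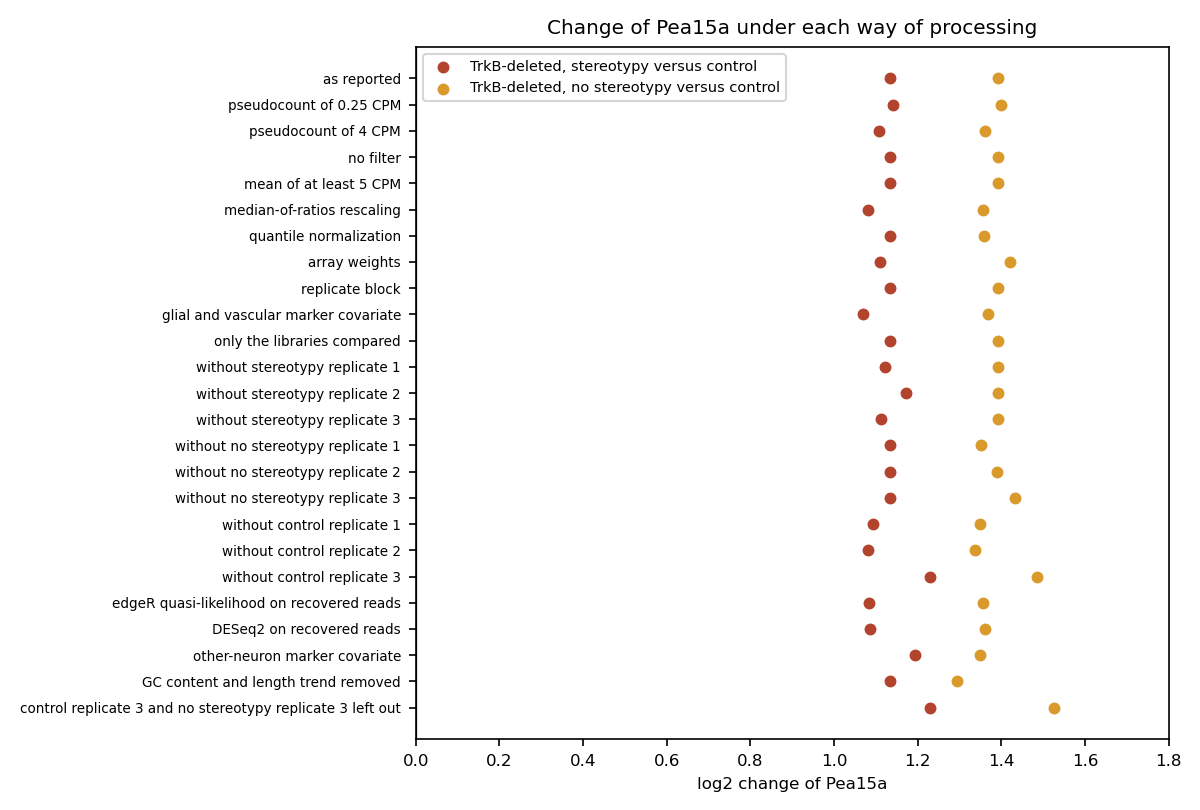
Log2 change of Pea15a (horizontal axis) with stereotypy (red) and without stereotypy (yellow) against control, for the values as reported and for each alternative (rows). All points lie between 1.07 and 1.53, and the red point is left of the yellow point in every row.

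The 3 genes whose pattern over the 9 libraries was most like that of Pea15a were Dop1b, Nfil3 and Magee2. Likeness was measured as the root mean square distance between log2(CPM + 1) values standardised over the libraries, among 9868 protein-coding genes with a mean of at least 5 CPM, and it is a description with no test. The distance was 0.135 for Dop1b, 0.165 for Nfil3 and 0.17 for Magee2. Dop1b had 103, 107 and 113 CPM with stereotypy, 114, 117 and 111 CPM without stereotypy and 76.1, 75.7 and 80.1 CPM in controls. Nfil3, a basic leucine zipper transcription factor, averaged 10.8 CPM with stereotypy, 12.1 CPM without stereotypy and 5.02 CPM in controls. Magee2 averaged 14.3 CPM with stereotypy, 18.2 CPM without stereotypy and 7.46 CPM in controls.

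Of the exchange factors, Rasgrp1 (ENSMUSG00000027347, chr2:117279993-117343001, minus strand) is activated by diacylglycerol and calcium. It had 883, 850 and 914 CPM with stereotypy, 773, 730 and 831 CPM without stereotypy and 721, 659 and 735 CPM in controls. All 3 libraries with stereotypy lay above all controls, and the group without stereotypy overlapped the controls. The log2 change with stereotypy was 0.32 (95% interval 0.14 to 0.51, limma adjusted p = 0.0537), just short of the threshold. Without stereotypy it was 0.14 (-0.05 to 0.33, limma adjusted p = 0.370).

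Rasgrf1 (ENSMUSG00000032356, chr9:89909908-90026977, plus strand) is an exchange factor that responds to calcium through calmodulin and can couple glutamate receptors to Ras. It had 187, 197 and 199 CPM with stereotypy, 195, 203 and 194 CPM without stereotypy and 218, 295 and 225 CPM in controls. All 6 TrkB-deleted libraries lay below all 3 controls, and control replicate 2 stood above the other two. Averaged over both TrkB-deleted groups, the log2 change was -0.31 (95% interval -0.52 to -0.11, limma adjusted p = 0.0828), and the separate comparisons gave -0.32 with stereotypy (limma adjusted p = 0.107) and -0.30 without stereotypy (limma adjusted p = 0.132).

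Rasgrf2 (ENSMUSG00000021708, chr13:91880400-92131656, minus strand), its close paralog, had 40.997, 26.9 and 19.9 CPM with stereotypy, 36.8, 43.5 and 32.2 CPM without stereotypy and 23.3, 16.3 and 24.3 CPM in controls. The libraries without stereotypy lay above all controls, while those with stereotypy spread over a range wider than the controls and overlapped them. The log2 change was 0.40 with stereotypy (95% interval -0.12 to 0.92, limma adjusted p = 0.321) and 0.80 without stereotypy (0.28 to 1.32, limma adjusted p = 0.0699). Rasgrf1 and Rasgrf2 could share reads where their sequences are alike, since the handling of ambiguous reads is not given in the sources used here.

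Braf (ENSMUSG00000002413, chr6:39603237-39725463, minus strand) is the Raf kinase known to be most active toward MEK. It had 162, 181 and 188 CPM with stereotypy, 127, 131 and 159 CPM without stereotypy and 148, 154 and 165 CPM in controls. The libraries with stereotypy overlapped the controls and lay above those without stereotypy. The log2 change was 0.18 with stereotypy (limma adjusted p = 0.306) and -0.17 without stereotypy (limma adjusted p = 0.370). Stereotypy exceeded no stereotypy by 0.35 (95% interval 0.12 to 0.58, limma adjusted p = 0.0537). Braf shares 146 bases with Ndufb2 on the opposite strand.

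Map2k1 (ENSMUSG00000004936, chr9:64185770-64253631, minus strand) encodes MEK1. It had 681, 730 and 665 CPM with stereotypy, 786, 759 and 590 CPM without stereotypy and 593, 649 and 529 CPM in controls. All libraries with stereotypy lay above all controls, and those without stereotypy overlapped them through replicate 3. Its log2 change was 0.23 with stereotypy (95% interval -0.03 to 0.50, limma adjusted p = 0.262) and 0.26 without stereotypy (limma adjusted p = 0.223).

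Map2k2 (ENSMUSG00000035027, chr10:81105915-81133975, plus strand) encodes MEK2. It had 60.6, 55.0 and 51.4 CPM with stereotypy, 72.6, 67.8 and 62.6 CPM without stereotypy and 64.6, 67.6 and 61.4 CPM in controls. The group with stereotypy lay below both other groups. Its log2 change was -0.21 with stereotypy (limma adjusted p = 0.207) and 0.07 without stereotypy (limma adjusted p = 0.738), and stereotypy against no stereotypy gave -0.28 (95% interval -0.49 to -0.07, limma adjusted p = 0.0852).

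Mapk3 (ENSMUSG00000063065, chr7:126759601-126765819, plus strand) encodes ERK1. It had 124, 117 and 99.4 CPM with stereotypy, 144, 157 and 126 CPM without stereotypy and 110, 117 and 104 CPM in controls. The libraries without stereotypy lay above all libraries of both other groups. Its log2 change was 0.04 with stereotypy (limma adjusted p = 0.868) and 0.37 without stereotypy (95% interval 0.12 to 0.61, limma adjusted p = 0.0761), and stereotypy against no stereotypy gave -0.33 (-0.57 to -0.08, limma adjusted p = 0.0801).

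The libraries of the groups compared did not overlap for 5 of the 8 genes with stereotypy against control, where 27.7% of all genes tested did not overlap. The count was 4 of 8 without stereotypy against control (25.5% of all genes), 2 of 8 for both TrkB-deleted groups against control (9.30%) and 5 of 8 between stereotypy and no stereotypy (38.3%). The median log2 change of the 8 genes was 0.21 with stereotypy, 0.20 without stereotypy and -0.14 between stereotypy and no stereotypy, and that of all genes tested was 0.05, 0.03 and 0.02 in the same order.

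**Figure D3:**
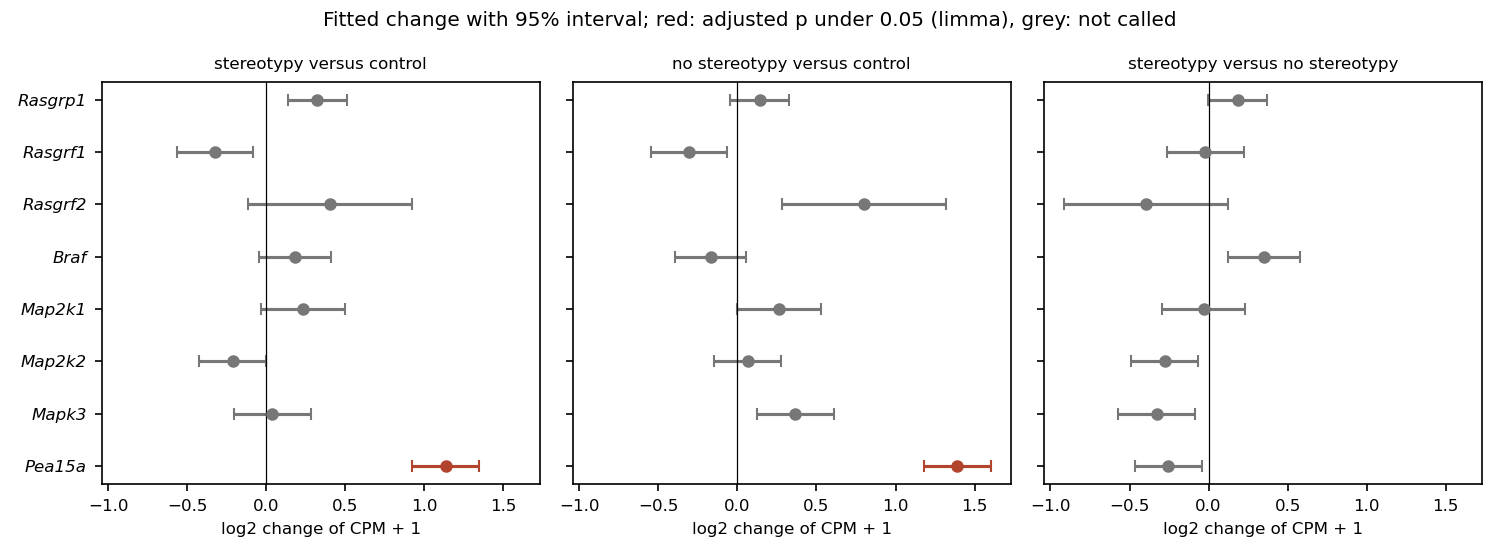
Fitted log2 change of CPM + 1 (horizontal axis) of each gene, with its 95% interval, in 3 comparisons. Red marks an adjusted p under 0.05 by limma and grey marks the rest. Pea15a at 1.14 and 1.39 is the gene marked red, and no gene is marked red between stereotypy and no stereotypy.

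The differences between the TrkB-deleted groups are set beside the base composition of the transcripts. Of the longest transcripts, those of Braf (42.6% GC) and Rasgrp1 (46.7% GC) had a positive difference of stereotypy against no stereotypy, and those of Mapk3 (57.6% GC) and Map2k2 (60.4% GC) had a negative one. Rasgrf2, at 45.8% GC and -0.40, did not follow that order. When a smooth trend over GC content and length was removed from each library, the genes called between these groups numbered 11 of 13695, against 1398 with the levels as deposited. With single libraries left out, the limma count over all genes was 0 when the third stereotypy library was missing, 0 when either the first or the second library of the no stereotypy group was missing, and 1 when the second stereotypy library was missing. It was 0 with markers of other neurons in the fit. In these fits, in that order, 2873, 2926, 3088, 3269 and 3558 genes had an unadjusted p under 0.05, against 4089 in the fit to all libraries. When any other single library was missing, the limma count over all genes was 806 to 1982. With the trend removed the log2 difference was 0.02 for Braf, 0.05 for Rasgrp1, -0.11 for Mapk3 and -0.04 for Map2k2, with limma adjusted p-values of 0.891, 0.745, 0.530 and 0.842. For Pea15a it was -0.16 (limma adjusted p = 0.420).

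**Figure D4:**
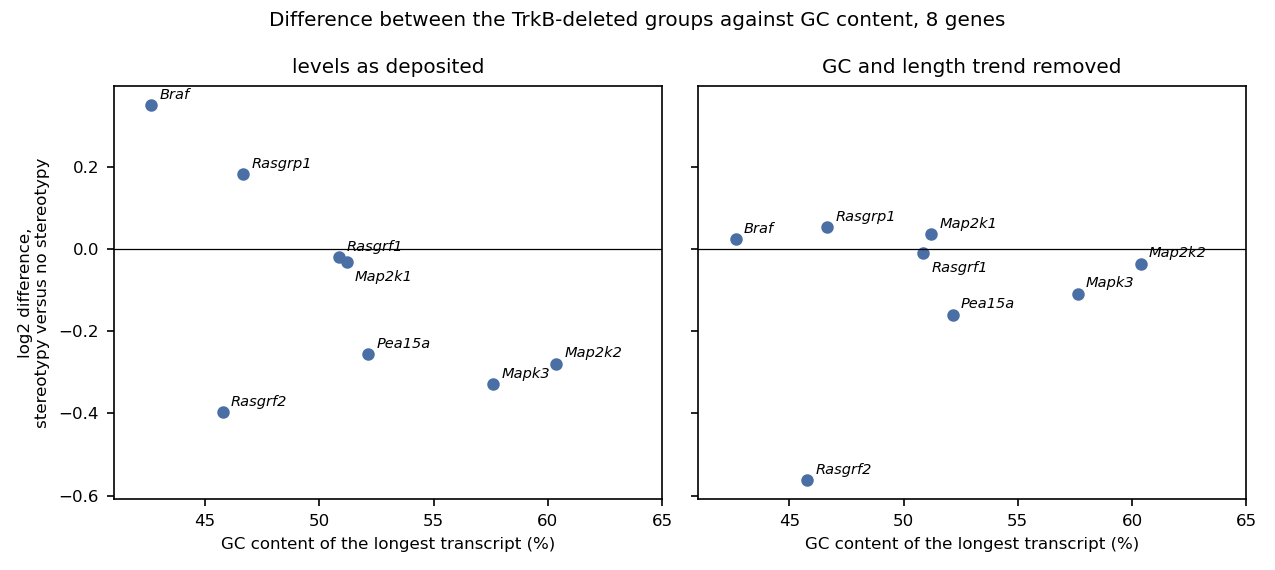
Log2 difference of stereotypy against no stereotypy (vertical axis) of the 8 genes against the GC content of their longest transcript in percent (horizontal axis), for the levels as deposited and with the GC and length trend taken out. Braf moves to 0.02 and Mapk3 to -0.11 after removal, while Rasgrf2 moves to -0.56.

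Per kilobase of the longest transcript, Map2k1 had the highest level of the 8 genes, at 284 CPM per kb with stereotypy, 292 without stereotypy and 242 in controls. Rasgrp1 was the second, at 169, 149 and 135 CPM per kb in the same order. Pea15a was the third in both TrkB-deleted groups, at 74.1 and 88.6 CPM per kb with and without stereotypy, and the fifth in controls at 33.6 CPM per kb, below Mapk3 and Rasgrf1. Its libraries overlapped those of Mapk3 without stereotypy and did not overlap them with stereotypy, and with lengths taken as the union of exons Mapk3 stood above Pea15a in both TrkB-deleted groups. Rasgrf2 was the lowest in every group, at 5.05 CPM per kb with stereotypy, 6.47 without stereotypy and 3.67 in controls.

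Shares within families were computed per kilobase of the longest transcript. Map2k2 made up 7.54 ± 0.637% of both MEK genes with stereotypy, 8.85 ± 0.750% without stereotypy and 10.002 ± 0.496% in controls (SD, n = 3 each). Braf made up 20.7% of the 3 Raf genes with stereotypy, 17.5% without stereotypy and 18.0% in controls. Rasgrf2 made up 10.99 ± 3.92% of the Rasgrf genes with stereotypy, 13.5 ± 1.49% without stereotypy and 6.86 ± 2.18% in controls. With lengths taken as the union of exons, the shares in the same order of groups were 4.60, 5.43 and 6.17% for Map2k2, 28.1, 24.0 and 24.7% for Braf, and 15.2, 18.5 and 9.66% for Rasgrf2. Among the other exchange factors of the Rasgrp family, Rasgrp3 had 0.588 to 1.83 CPM over the 9 libraries. Rasgrp2 is listed at 0 in all of them. Whether that 0 comes from a lack of its RNA or from the way reads were assigned to genes was not tested. It is therefore not a measure of the absence of Rasgrp2.

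Other genes of the pathway were listed by role, 78 in all, of which 73 were tested. With stereotypy against control 2 were higher and 1 was lower, without stereotypy 2 were higher and 3 were lower, and for both TrkB-deleted groups 1 was higher and 1 was lower. Of all genes tested, 3.58% were higher and 1.53% lower with stereotypy, 3.76% higher and 3.01% lower without stereotypy, and 3.67% higher and 2.05% lower for both groups. That split depends on the scaling: without stereotypy 515 genes were higher and 412 lower, against 434 and 475 with median-of-ratios rescaling. The median log2 change of the 73 genes was 0.01, -0.05 and 0.02 in the same order. Between stereotypy and no stereotypy 7 of the 73 were higher and 3 were lower, where 6.61% and 3.60% of all genes were.

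Shc3, an adaptor that links receptors such as TrkB to Ras and is expressed in neurons, fell. It had 5.62, 7.68 and 9.78 CPM with stereotypy, 4.47, 6.19 and 3.77 CPM without stereotypy and 17.0, 22.4 and 29.0 CPM in controls, with no overlap between the TrkB-deleted libraries and the controls. The log2 change was -1.45 with stereotypy (limma adjusted p = 0.00935) and -2.02 without stereotypy (limma adjusted p = 0.00112). With glial and vascular markers in the fit, the change with stereotypy was -1.14 (limma adjusted p = 0.260).

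Rasa3, a GTPase activating protein that switches Ras off, had 59.8, 62.7 and 50.6 CPM with stereotypy, 69.1, 63.8 and 61.7 CPM without stereotypy and 44.4, 42.3 and 44.1 CPM in controls, again with no overlap. It rose by 0.39 on the log2 scale with stereotypy (limma adjusted p = 0.0484) and by 0.56 without stereotypy (limma adjusted p = 0.00910). With glial and vascular markers in the fit, the change with stereotypy was 0.24 (limma adjusted p = 0.667), and the call for both TrkB-deleted groups was lost too (0.38, limma adjusted p = 0.276). The call with stereotypy was lost in 15 of 24 alternatives, among them the fits without any single library other than stereotypy replicate 3 or no stereotypy replicate 3, and the call without stereotypy was lost without no stereotypy replicate 1 (limma adjusted p = 0.0534).

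Among scaffolds, Iqgap1 had a log2 change of 0.73 with stereotypy (limma adjusted p = 0.0320). Ksr1, a scaffold that holds Raf, MEK and ERK together, had 0.79 without stereotypy (limma adjusted p = 0.0377), while Cnksr2 had -0.57 (0.0230). Rps6ka3, a kinase that ERK activates, had -0.59 without stereotypy (limma adjusted p = 0.0186). Each of these calls against control was lost in 4 to 11 of 24 alternatives. The call of Iqgap1 was lost without any 1 of the stereotypy libraries, no stereotypy replicate 2, or control replicate 2 or 3 (limma adjusted p up to 0.106), and with glial and vascular markers in the fit (0.59, limma adjusted p = 0.469). That of Ksr1 was lost without stereotypy replicate 1, any 1 of the no stereotypy libraries, or control replicate 1 or 3 (up to 0.116), and with glial and vascular markers in the fit (limma adjusted p = 0.0859). That of Cnksr2 was lost without no stereotypy replicate 1 or 2 or control replicate 3 (up to 0.0925), and that of Rps6ka3 without no stereotypy replicate 1 or 2 or control replicate 1 (up to 0.0714). Between stereotypy and no stereotypy, Map3k1, Frs2, Rasa1, Cnksr2, Rps6ka3 and Rps6ka5 were higher by 0.52 to 0.76, and Rasal1, Ksr1 and Mapk11 were lower, with log2 differences of -0.89, -0.70 and -1.49. None of these 9 genes was called once the GC and length trend was taken out (limma adjusted p = 0.0830 or above), and each call was lost without stereotypy replicate 2 or 3 or no stereotypy replicate 1 or 2.

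**Figure D5:**
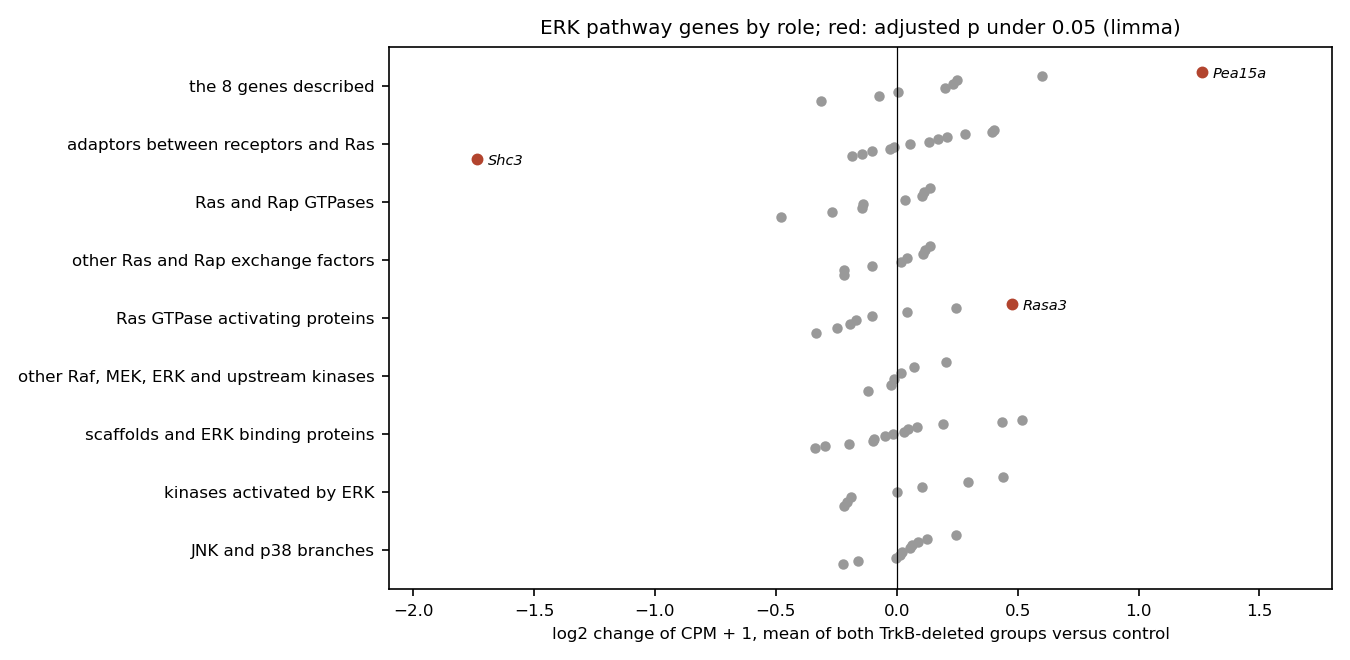
Log2 change of CPM + 1 averaged over both TrkB-deleted groups, relative to control (horizontal axis) of the 8 genes and of the other pathway genes, each point a gene, by role (rows). Red points passed the test by limma. Pea15a at 1.26 and Shc3 at -1.74 lie farthest from 0, and most points of every role lie within 0.5 of it.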

How the data were processed

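RNA from precipitated ribosomes was sequenced in 9 libraries of 3 groups, grouped by the labels. The authors deposited levels in CPM, the count of a gene scaled to the total of its library. Per the submitters' processing notes, TopHat was used with GRCm38. For the read counter, its gene models and its strand setting, nothing was given in the sources used here. All values above 0 (100%) came out as whole reads within a tolerance of 0.1 reads, so reads were recovered for the count tests. A count of 0 allows up to 0.0739 to 0.111 CPM (3 reads per library), for counting error only. GENCODE M21 matched 47224 identifiers (98.94%).

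Genes reaching 1 CPM in 3 or more libraries (13695) were tested on log2(CPM + 1), a scale that understates the change of low genes, with limma 3.58.1 (R 4.3.3), a variance trend, 6 residual degrees of freedom and Benjamini-Hochberg adjustment. The scripts were checked on simulated data. Pearson correlations of log2 levels within a group were 0.98 to 0.995, and no pair of libraries agreed within sampling noise. All 8 genes and Ntrk2 are named, with pathway genes called in any comparison (at most 6 per direction, by the size of the change averaged over both TrkB-deleted groups), paralogs, and the 3 genes nearest in pattern; 1 pathway gene is not reported here and is left out of the counts of pathway genes. The members and lists were chosen with earlier results of these data known. Alternatives were pseudocounts of 0.25 and 4, other filters, median-of-ratios and quantile scaling, array weights, the replicate number as a block, the level of glial and vascular markers, the compared libraries alone, each library left out, edgeR 4.0.16 and DESeq2 1.42.0 on recovered reads. Chosen after seeing the data were markers of other neurons as a covariate, removal of the GC and length trend, and leaving out control replicate 3 with no stereotypy replicate 3, which had the most cortical marker RNA of their groups.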

Additional observations from a re-analysis of the deposited data

How the results depend on the processing

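The call of Pea15a against control and its direction held under every alternative run. The number of the 8 genes called was 1 in each comparison with control and 0 between stereotypy and no stereotypy. With stereotypy against control it was 2 with a mean of at least 5 CPM, quantile normalization or the other-neuron covariate and 3 with DESeq2. Over all genes these fits called 593 of 10500, then 609, 966 and 1522 of 13695. Without stereotypy against control 4 of the 8 were called with array weights, and 2 with DESeq2 or with only the libraries compared. Of all 13695 genes 1873, 1509 and 568 were called in these fits. For both groups 3 of the 8 were called with DESeq2 and 2 with the other-neuron covariate or with the GC and length trend removed. Of all 13695 genes 1326, 1237 and 991 were. Between stereotypy and no stereotypy 1 of the 8 was called with quantile normalization, 5 with array weights and 3 with DESeq2. Without control replicate 3 and no stereotypy replicate 3 it was 2. Of all 13695 genes 1452, 4698, 2343 and 1698 were called in these fits. The cause of these moves was not tested. Leaving out single libraries gave 1 to 2, 1 to 2, 1 and 0 to 2 genes in the same order, with 2 in every comparison but that of both groups without no stereotypy replicate 3. Deviations from the group mean correlated above 0.1 in 4 of 9 same-numbered pairs of libraries of different groups (-0.08 to 0.406). Between libraries of different groups and different numbers they ran from -0.422 to 0.247. Whether the numbers mark libraries handled together is not known. With the replicate block 2, 2, 1 and 2 of the 8 genes were called in the 4 comparisons. Over all 13695 genes that fit called 917, 1099, 880 and 1788.

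Over all genes, limma called 699, 927, 784 and 1398 in that order, edgeR 643, 904, 729 and 1335, and DESeq2 1522, 1509, 1326 and 2343. With the glial and vascular covariate the counts were 24, 508, 74 and 612, and with no filter 330, 484, 392 and 572. Array weights gave 1873 without stereotypy and 4698 between the TrkB-deleted groups, the compared libraries alone 568 without and 326 with stereotypy, and the other-neuron covariate 1237 for both groups and 0 between the TrkB-deleted groups, where removing the GC and length trend gave 11. Single libraries left out gave 124 to 805, 317 to 935, 403 to 732 and 0 to 1982. The higher and lower calls were 490 and 209 with stereotypy, 515 and 412 without stereotypy, 503 and 281 for both groups and 905 and 493 between the TrkB-deleted groups. With median-of-ratios rescaling they were 379 and 338, 434 and 475, 391 and 361, and 787 and 600, and with edgeR 321 and 322, 411 and 493, 340 and 389, and 778 and 557.

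Some log2 changes near 0 reversed. Mapk3 with stereotypy against control was -0.0171 with median-of-ratios rescaling, -0.0178 with edgeR, -0.0157 with DESeq2, -0.0249 with the other-neuron covariate, -0.00453 without control replicate 3 and no stereotypy replicate 3, and -0.0284 to 0.128 over single libraries left out. Braf for both groups against control was -0.0389 with rescaling, -0.0391 with edgeR, -0.0349 with DESeq2, -0.0172 with array weights, -0.0622 with glial and vascular markers, -0.0886 with the GC and length trend removed, -0.00125 without control replicate 3 and no stereotypy replicate 3, and -0.0437 to 0.0484 over single libraries left out. With that trend removed, Braf with stereotypy against control was -0.0762 and Map2k2 without stereotypy against control was -0.0847. Map2k1 between stereotypy and no stereotypy was 0.0935 with glial and vascular markers, 0.0372 with the trend removed and -0.160 to 0.0460 over single libraries left out. Rasgrf1 between them was 0.106 with glial and vascular markers and -0.0378 to 0.00821 over single libraries left out.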
